A study of Mus musculus with 90 samples.

Results

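The genes described here encode the proteins of the cytosolic ribosome, measured in mouse liver under caloric restriction, after loss of the glucocorticoid receptor (GR) from hepatocytes, across the day and after corticosterone. They were chosen by symbol: Rpl or Rps followed by a number and at most one of the letters a, l or x, together with Rplp0, Rplp1, Rplp2, Rpsa and Fau. Pseudogenes, genes with "like" in the name and the Rps6k kinases were left out. The rule found 83 of the 27654 genes in the deposited count tables, namely 43 proteins of the large subunit, 31 of the small subunit, the 3 proteins of the P stalk and 6 paralogs that carry an extra letter l (Rpl3l, Rpl6l, Rpl10l, Rpl39l, Rps4l and Rps27l). A few genes of the same family fell outside the rule by their spelling, among them Rps3a1 and Rpl22l1.

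The 90 libraries were bulk polyA RNA of whole liver from male C57BL/6J mice on chow. In the time series, WT mice carried GRfl/fl without Cre, and GRLKO mice carried GRfl/fl x Alb-Cre, in which the albumin promoter drives Cre in hepatocytes, so that other liver cells keep the receptor. Livers were taken every 4 h at 6 zeitgeber times (ZT0 is lights on), either under caloric restriction (cal. res., lowered stepwise to 40% fewer calories with food given at ZT12, 3 livers per group) or on the control diet of night-restricted feeding (ctrl., 3 or 4 livers per group). A separate diet comparison held 3 WT livers on cal. res. and 3 on ctrl. at ZT12; the titles of these controls say AL, while their treatment label reads night-restricted feeding. A corticosterone experiment held 3 WT livers after daily corticosterone (CORT) and 3 after vehicle, all on night-restricted feeding and taken at ZT12. The study's methods call the libraries biological replicates, so each p-value below measures the spread between livers.

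A ribosome joins a small subunit, which reads the mRNA, to a large subunit, which forms the peptide bond, and each ribosomal protein is present once per ribosome apart from the stalk proteins P1 and P2. The mRNAs of these proteins begin with a 5′ terminal oligopyrimidine (TOP) tract, a C followed by a run of C and T, through which mTORC1 and LARP1 switch their translation on and off with nutrients. In the liver the translation of TOP mRNAs is known to follow feeding, so the mRNA level measured here is only one of the layers at which the family is controlled.

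The start of the mRNA is shown for 8 genes named in the results, 5 whose annotated start opens with a pyrimidine tract and 3 whose start does not; they were picked to show both kinds. Each window runs from 20 bases before to 10 bases from the annotated RefSeq start (GRCm38.p6), with the pyrimidine tract that opens the mRNA in capitals. The windows lie at chr4:86857358-86857387 on the minus strand for Rps6, chr19:6057927-6057956 on the plus strand for Fau, chr7:141447631-141447660 on the plus strand for Rplp2, chr7:118116138-118116167 on the minus strand for Rps15a, chr17:33955656-33955685 on the minus strand for Rps18, chr5:115559447-115559476 on the plus strand for Rplp0, chrX:74270796-74270825 on the plus strand for Rpl10 and chr9:120127746-120127775 on the plus strand for Rpsa.
Rps6: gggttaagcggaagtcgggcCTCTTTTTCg
Fau: ggacgtgcgcgcccccacttCTTCCTCTTT
Rplp2: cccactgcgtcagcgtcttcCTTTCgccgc
Rps15a: gcccactctctttctgccatCTTCCCTCgc
Rps18: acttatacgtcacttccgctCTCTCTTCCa
Rplp0: acgtcgtcttcgggtttcgaggaccgcctg
Rpl10: ctatggttgttacagtggaagataggccgc
Rpsa: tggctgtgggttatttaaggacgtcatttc
The tract was 9 bases long in Rps6, at least 10 in Fau, where it fills the window after the start, 5 in Rplp2, 8 in Rps15a and 9 in Rps18, and the annotated starts of Rplp0, Rpl10 and Rpsa did not open with one, nor did those of Rpl22 and Rps27l. Of the 61 genes of the family in the RefSeq promoter table, 14 (23%) opened with a C followed by at least 4 bases of C or T on the gene's own strand, against 813 of the 27025 genes in that table (3.01%). When the tract could begin anywhere from 5 bases before to 10 bases after the annotated start, the counts were 29 of 61 (47.5%) and 5718 (21.2%). These are matches of letters at annotated starts, not mapped mRNA ends.

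Levels are given as CPM, estimated counts divided by the library total in the usual unit, with that total scaled between libraries by the trimmed mean of M-values (TMM) within each experiment. Scaling was separate in each experiment and CPM is not divided by transcript length, so a level was compared only within one gene and one experiment unless stated. Total estimated counts per library were 36442195 to 39492146 in the diet comparison, 13739631 to 16077943 in the corticosterone experiment, 14235473 to 20788575 in the cal. res. time series and 10057544 to 17089004 in the ctrl. time series. Nr3c1, the gene for GR, was at 70.1 to 118 CPM in the WT livers of the time series and at 16.2 to 32.1 CPM in GRLKO livers, without overlap. The 7 hepatocyte markers (albumin and others) were detected in every group.

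The family was abundant and even between livers. Of the 83 genes, 76 had a median of at least 5 CPM of total counts, without TMM, and none of these 76 was at 0 in any library. Their median coefficient of variation within a group was 6.4%, ranging from 3.4% to 31.0%, and it was under 10% in 65 of them. The paralogs behaved differently from the core genes. Rpl10l, a testis paralog of Rpl10, was at 0 in all 90 libraries, Rpl39l was at 0 in 79, Rpl6l in 72 and Rpl3l, a muscle paralog of Rpl3, in 40. Rps27l, a p53-responsive paralog of Rps27, was present in every liver, with a median of 111 CPM of total counts, and Rps4l was low, at 9.25 CPM.

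Ribosomal protein genes have many processed pseudogenes, and estimated counts of a gene and its near-identical copies can trade places. In the tables, 227 genes were copies of a member by name and 715 by sequence (at least 90% identity over at least 50% of the transcript). Copies held at least 50% of the estimated counts of 8 genes and their copies together, namely Rpl5, Rpl10, Rpl12, Rpl27, Rpl27a, Rps12, Rps23 and Rps27, while they held under 1% for 48. Rps27 was at 0 in 48 libraries, including all but 3 of the ctrl. time series, where the other 3 read 2.83, 3.86 and 10.7 CPM. Copies held 89.3% of the counts of Rps27 with its copies and 98.2% of those of Rps12, so their values, like those of the other genes with at least 50% on copies, Rpl5 and Rpl10 among them, are uncertain. Of the genes named most often below, the share on copies was 30.6% for Rps6, 8.37% for Rpl3, 5.59% for Rplp0, 7.35% for Fau, 0.31% for Rps15a and 0.02% for Rpl22.

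The first comparison asked which ribosomal protein mRNAs differ between cal. res. and ctrl. in WT livers at ZT12, at the end of the fasting phase. Nearly the whole family was higher on cal. res. in the diet comparison. The summed level was 10575.4, 10439.8 and 10180.8 CPM in the ctrl. livers and 14124.2, 14003.9 and 14028.2 CPM in the cal. res. livers, so that every cal. res. liver lay above every ctrl. liver. Both subunits took part: the large subunit rose from 5458 to 5671 CPM to 7578 to 7637 CPM, and the small subunit from 3984 to 4149 CPM to 5464 to 5547 CPM. As a share of all counts, before any scaling, the family went from 1.04 to 1.12% in ctrl. to 1.33 to 1.37% on cal. res.

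**Figure D1:**
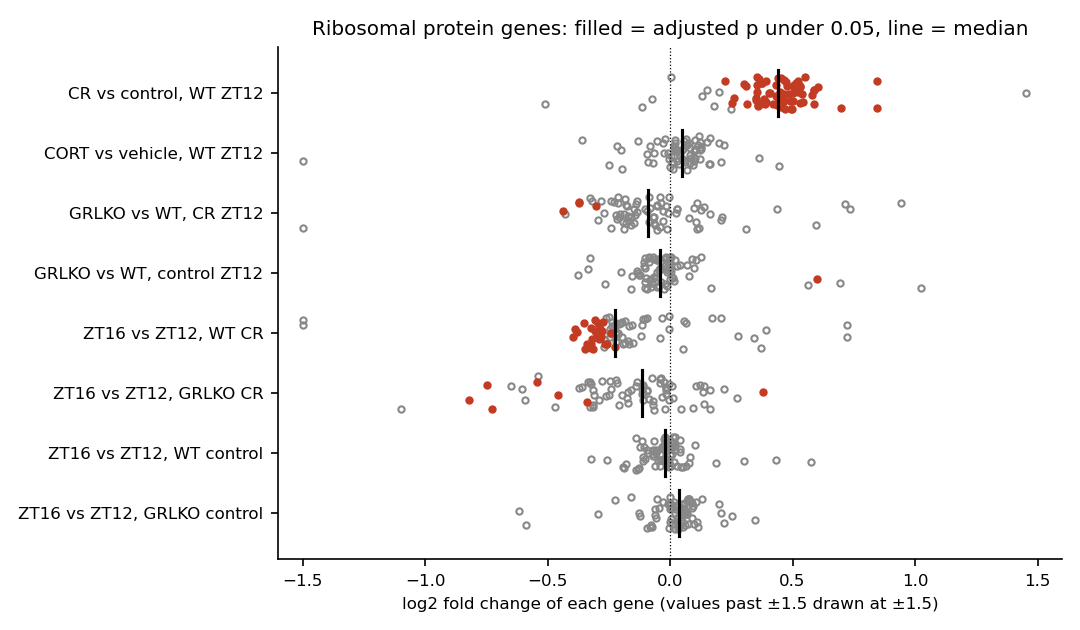
Each point is the log2 fold change (horizontal axis, values past ±1.5 drawn at ±1.5) of 1 ribosomal protein gene in 1 of 8 comparisons (CR is cal. res.), filled points passed an adjusted p of 0.05 in edgeR, and the bar is the median. The row of CR against control lies to the right of 0, with 69 genes called higher and 0 lower of 79, while the row of CORT lies around 0 with 0 called.

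Of 79 genes tested with edgeR's quasi-likelihood test, 69 were higher and 0 lower at an adjusted p under 0.05, where 47.1% of all genes were called and 23.5% were called higher. At an unadjusted p under 0.05 the number was 71 (7122 of all 13062 genes), and DESeq2 called 71 higher and 0 lower. The share of all genes called by DESeq2 is not given here. The median log2 fold change over the 79 was 0.44, against 0.00 over all genes tested. In 73 of the 79 every cal. res. liver was above every ctrl. liver, compared with 28.9% of all genes. Scaled to total counts without TMM, 61 were called higher and the median was 0.32, with the median of all genes at −0.12. For this scaling, too, no share of all genes called is set beside the 61.

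The stalk proteins recruit the GTPase elongation factors to the ribosome. Rplp0, the stalk's base and the reference gene of the study's qPCR, was at 340, 351 and 345 CPM in ctrl. livers and at 451, 488 and 482 CPM in cal. res. livers, a log2 fold change of 0.46 (SE 0.07, edgeR adjusted p = 0.00195). Rplp2 was at 93.6, 92.1 and 80.1 CPM in ctrl. and 115, 115 and 110 CPM on cal. res. (0.36, adjusted p = 0.00891 in edgeR). Rplp1 was at 216, 226 and 218 CPM against 275, 248 and 234 CPM, and its log2 fold change of 0.20 did not pass in edgeR (adjusted p = 0.0798) but did in DESeq2 (adjusted p = 0.0459). All 3 stalk genes thus had their cal. res. livers above their ctrl. livers, with Rplp1 the smallest in log2 fold change.

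In the small subunit, Rps6, whose protein is the classic substrate of the S6 kinases, was at 286, 274 and 276 CPM in ctrl. livers and 370, 375 and 397 CPM on cal. res. (log2 fold change 0.45, edgeR adjusted p = 0.00198). Fau, which encodes a small subunit protein fused to a ubiquitin-like domain, went from 121, 115 and 117 CPM to 179, 165 and 169 CPM (0.53, adjusted p = 0.000994 in edgeR). Neither gene had overlapping groups. Rpsa, also known as the laminin receptor, went from 26.1, 24.98 and 32.4 CPM to 47.1, 40.1 and 48.2 CPM (0.70, SE 0.12, adjusted p = 0.00341 in edgeR). Rps2 averaged 599 ± 30.6 CPM on cal. res. and 465 ± 13.7 CPM in ctrl. (SD, n = 3 each).

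In the large subunit, the largest fitted rises among genes above 5 CPM were those of Rpl10, which joins the subunit late in its assembly, and Rpl5, which carries the 5S rRNA into it. Rpl10 was at 58.2, 52.7 and 56.3 CPM in ctrl. livers and 99.4, 89.6 and 112 CPM on cal. res. (log2 fold change 0.85, SE 0.09, edgeR adjusted p = 0.000677). Rpl5 was at 18.1, 14.6 and 16.9 CPM against 22.8, 32.6 and 33.6 CPM (0.85, SE 0.16, adjusted p = 0.00488 in edgeR). Most counts of both families lay on copies, as given above. Rpl3, a protein near the peptidyl transferase centre, went from 240, 277 and 250 CPM to 425, 394 and 336 CPM (0.59, SE 0.11, adjusted p = 0.00406 in edgeR). Rpl36 went from 83.4, 82.7 and 81.3 CPM to 129, 122 and 126 CPM (1.52-fold, adjusted p = 0.000477 in edgeR). Rpl7a averaged 386 ± 4.74 CPM on cal. res. against 265 ± 3.93 CPM, and Rpl4 599 ± 17.6 CPM against 435 ± 1.15 CPM (SD, n = 3 each); these 2 were named after their values were seen.

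The 10 tested genes that were not called included Rplp1, Rpl12, Rpl22, Rps25, Rps27, Rps4l and Rps27l. Rps27l was at 94.6, 94.2 and 85.4 CPM in ctrl. and 96.0, 103 and 101 CPM on cal. res. (log2 fold change 0.13, edgeR adjusted p = 0.171). Rps27 had overlapping groups, at 31.5, 23.4 and 19.5 CPM against 20.03, 32.7 and 35.8 CPM (0.25, adjusted p = 0.437 in edgeR). Rps4l had a negative fold change of −0.51 (adjusted p = 0.265 in edgeR), with 10.1, 8.80 and 10.2 CPM in ctrl. and 3.15, 7.48 and 9.78 CPM on cal. res. The other 4 of the 83, Rpl3l, Rpl6l, Rpl10l and Rpl39l, were too low to be tested.

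Other parts of the translation machinery did not all move with the ribosomal proteins. For comparison, of all 13062 genes tested 3073 were higher (23.5%) and 3082 lower. Of 30 translation factors and other TOP mRNAs, 15 were higher and 0 lower (median log2 fold change 0.21). Eef2, the translocation factor, averaged 2306 ± 143 CPM on cal. res. and 1643 ± 22.5 CPM in ctrl. (0.49, edgeR adjusted p = 0.00211), and Eef1a1, which delivers aminoacyl-tRNA, 5807 ± 159 and 4416 ± 107 CPM (0.40, adjusted p = 0.00327). Of 76 tested proteins of the mitochondrial ribosome, 0 were higher and 45 lower (median −0.26). Of 35 ribosome biogenesis genes, 6 were higher and 13 lower (median −0.19), and Npm1, a nucleolar chaperone on the TOP list, was at 185 ± 11.3 against 131 ± 7.10 CPM (0.50, adjusted p = 0.00222). Myc, a transcriptional activator of ribosome genes, was lower on cal. res. at 4.16 ± 0.395 CPM, and its ctrl. livers spread widely at 21.6, 38.5 and 3.32 CPM (−2.35, adjusted p = 0.0341).

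Markers of liver cells also differed between these groups. The summed level of the 7 hepatocyte markers was 89996 to 96076 CPM in ctrl. and 168052 to 173766 CPM on cal. res., with none of the 7 at 0. Albumin (Alb) alone was at 63958 to 68930 CPM in ctrl. and 128523 to 134653 CPM on cal. res., so the sum mainly follows this gene. The Kupffer cell list summed to 126 to 159 and 99.2 to 157 CPM, the endothelial list to 116 to 153 and 194 to 222 CPM, the stellate list to 168 to 213 and 249 to 286 CPM and the erythrocyte list to 465 to 1091 and 207 to 590 CPM. Their part in the result was not tested. In bulk tissue, more cells of a type and more RNA per cell cannot be told apart.

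The time series holds WT livers at ZT12 on both diets too, but each diet was deposited in a table of its own and the methods name 2 sequencing instruments without assigning them, so diet and table cannot be told apart there. In these libraries 25 genes were higher and 10 lower on cal. res. of 78 tested, where 38.1% of all genes were called, and the median log2 difference was 0.05. Of the 69 genes higher in the diet comparison, 23 were higher, 8 were lower and 38 were not called. The family-wide rise of the diet comparison was therefore not seen in the time series, and both sets of values are given here.

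**Figure D2:**
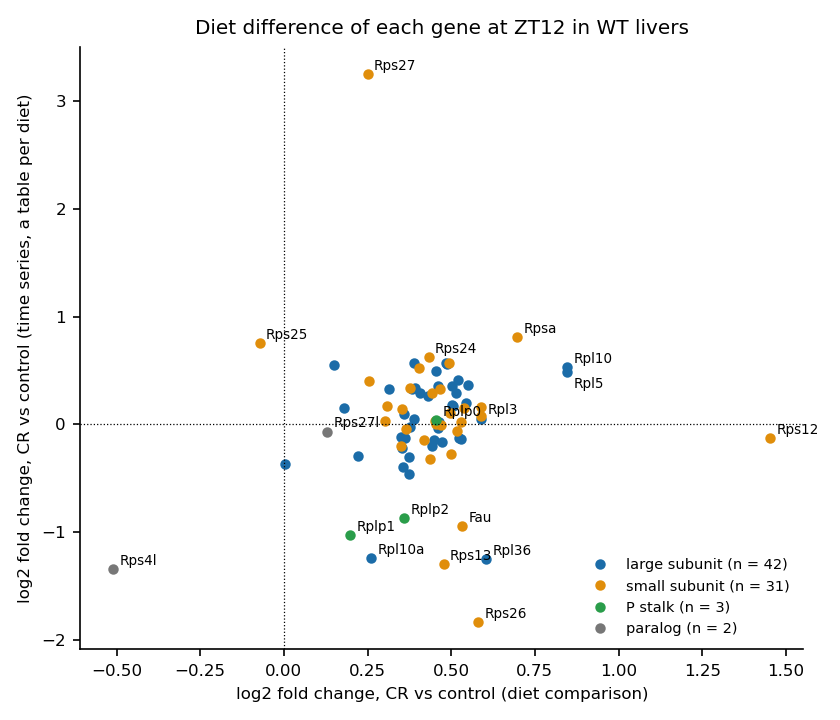
Each point is 1 ribosomal protein gene, coloured by subunit, with its log2 difference by diet in WT livers at ZT12, from the diet comparison (horizontal axis) and from the time series (vertical axis); 78 genes are drawn. Most points lie to the right of 0, at a median of 0.44, while on the vertical axis they spread on both sides of a median of 0.05, with Rps26 lowest among the genes called in the time series at −1.83.

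Rps26, whose protein lines the mRNA exit channel, had the largest gap among the genes called in the time series. In the time series it was at 109, 107, 122 and 120 CPM in ctrl. and 37.6, 33.0 and 26.7 CPM on cal. res. (−1.83, edgeR adjusted p = 0.000163), while in the diet comparison it was at 33.2, 30.3 and 33.2 CPM in ctrl. and 42.1, 49.6 and 52.9 CPM on cal. res. Its ctrl. level itself thus differed between experiments, and copies held only 0.45% of its counts. Fau went the opposite way in the time series, from 116, 121, 137 and 159 CPM in ctrl. to 81.2, 59.1 and 69.4 CPM on cal. res. (−0.94). Rpl36 (−1.25), Rpl10a (−1.24), Rplp1 (−1.03), Rplp2 (−0.87) and Rps4l (−1.34) were lower in the time series as well. Rpsa (0.81), Rps25 (0.75), Rps24 (0.62) and Rps4x (0.57) were the highest of the called genes. Rps27 had a larger difference (3.25) but did not pass (edgeR adjusted p = 0.0773), and neither did Rplp0 (0.04), Rps6 (0.03) or Rpl3 (0.05).

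The GC content of coding transcripts was compared between the genes called lower and higher in the time series. The median GC content was 55.7% in the 9 of the 10 lower genes with a coding transcript and 48.5% in the 25 higher genes, against 51.8% over 81 genes of the family, and Rps26, with the lowest time series difference among the called genes, had 48.6%. Across genes, Spearman's rho between GC content and the diet difference was −0.38 in the time series (77 genes) and 0.02 in the diet comparison (78 genes), and the 2 diet differences had a rho of 0.13 with each other (78 genes). Genes are not independent replicates and share their libraries, so these values describe the tables only. The part of base composition in the difference between the experiments was not tested.

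The corticosterone experiment asked whether the hormone alone, given to control-fed mice, changes these genes at ZT12. The family stayed near its vehicle level. Its summed level was 10205.5, 10169.3 and 10825.6 CPM after vehicle and 10845.7, 10461.7 and 10829.1 CPM after CORT, and the groups overlapped. The share of all counts was 1.03 to 1.11% after vehicle and 0.98 to 1.09% after CORT.

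**Figure D3:**
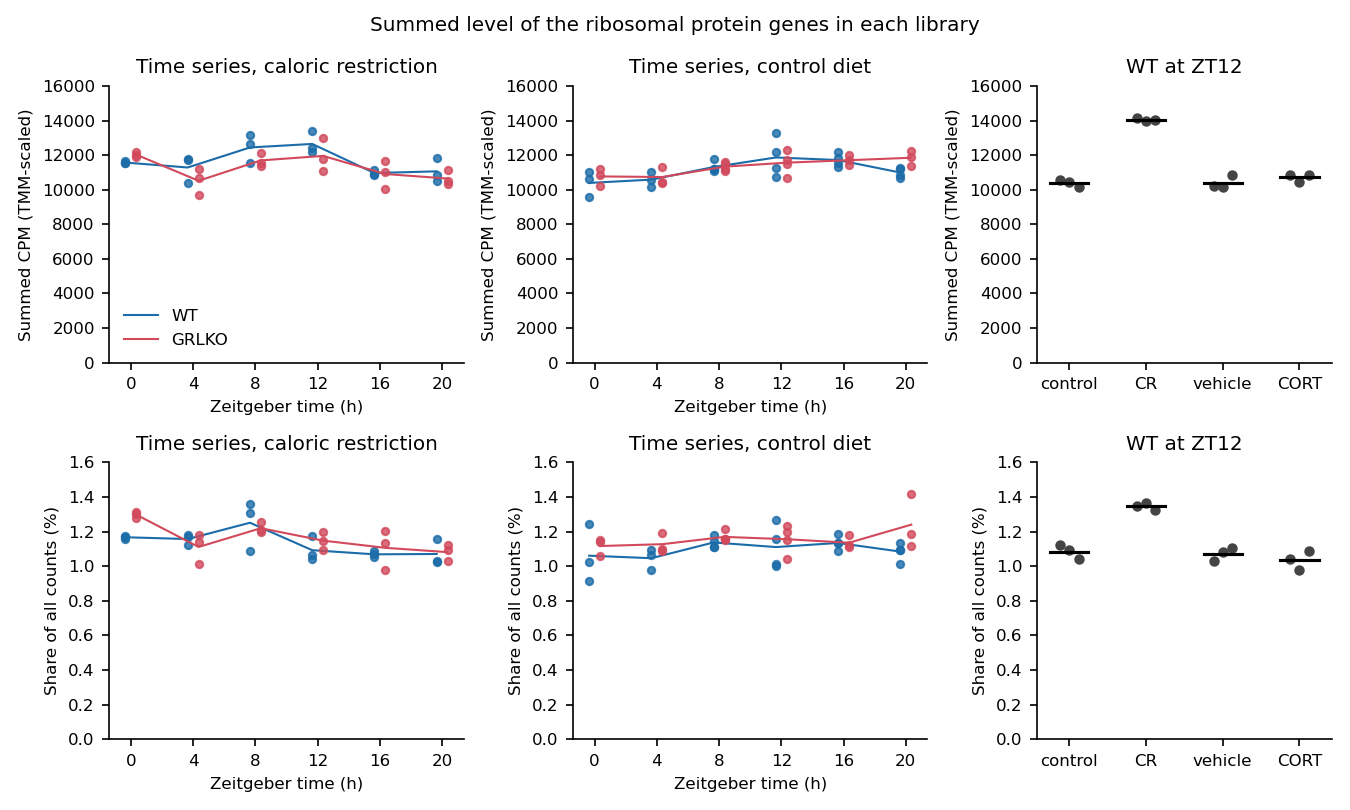
Summed level of the ribosomal protein genes in each library, as TMM-scaled CPM (upper panels) and as percent of all counts (lower panels), by zeitgeber time in the time series and by group at ZT12 in the other experiments, with 1 point per library and lines or bars at group means. The 3 CR livers of the diet comparison, at 14003.9 to 14124.2 CPM, lie above their controls at 10180.8 to 10575.4 CPM, and the CORT and vehicle livers overlap.

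With edgeR, 0 of 77 genes were called, where 8.11% of all genes were; 2 passed at an unadjusted p under 0.05 (2997 of all 11523 genes) and DESeq2 called 1 (11.9% of all genes). The median log2 fold change was 0.05, and it was −0.04 without TMM, with all genes at −0.10. In 17 genes all CORT livers were above all vehicle livers, as in 16.6% of all genes. In 3 genes they were all below, as in 1874 of all 11523 genes. Rplp0 was at 330, 336 and 369 CPM after vehicle and 386, 384 and 378 CPM after CORT (0.15, edgeR adjusted p = 0.323). Rps6 was at 154, 167 and 188 against 171, 175 and 187 CPM (0.07, adjusted p = 0.726 in edgeR). Rpl10 came closest, at 50.04, 59.5 and 54.5 against 65.7, 72.1 and 73.1 CPM (0.36, edgeR adjusted p = 0.0642), and Rpl22, a large subunit protein with its own paralog Rpl22l1, was the reverse, at 73.9, 71.8 and 78.8 against 62.7, 61.8 and 64.3 CPM (−0.25, adjusted p = 0.0973). Rpl10 and Rpl22 were named after their values were seen. Hepatocyte markers summed to 99416 to 106525 CPM after vehicle and 96125 to 109394 CPM after CORT.

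The effect of cal. res. and that of CORT were compared directly as a difference of differences, each against its own controls and across 2 experiments. The diet effect was the larger in 60 genes and the smaller in 1 of 78 (edgeR, adjusted p under 0.05), where 22.5% of all genes were called, and the median difference was 0.41. It was 0.69 for Rpl3 (edgeR adjusted p = 0.00419), 0.58 for Rpl7a (0.00117) and 0.54 for Rpl36 (0.00153). Diet and experiment cannot be told apart in this comparison, since each treatment has its own table.

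The genotype comparisons asked whether hepatocyte GR bears on the family at each time of day. Under cal. res. the most genes were called at ZT12, and there 4 ribosomal protein genes were lower in GRLKO and 0 higher of 78, where 15.3% of all genes were called. Rps15a, a small subunit protein, was at 117, 112 and 110 CPM in WT and 89.0, 87.0 and 87.4 CPM in GRLKO (log2 fold change −0.37, SE 0.07, edgeR adjusted p = 0.0159). Rpl5, with most counts of its family on copies, was at 38.1, 36.9 and 34.0 against 24.4, 28.3 and 28.1 CPM (−0.44, SE 0.09, adjusted p = 0.0225 in edgeR). Rpl13a was at 61.9, 54.9 and 58.8 against 43.1, 44.1 and 49.1 CPM, and Rpl9 at 276, 263 and 262 against 214, 219 and 219 CPM. For these last 2 the log2 fold changes were −0.37 (adjusted p = 0.0334 in edgeR) and −0.30 (adjusted p = 0.0338).

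The 4 genes had separate genotype groups, as did 24 genes of the family in all with GRLKO lower (19.0% of all genes), but the median over the 78 was only −0.09. Of the 4 calls, 0 passed when libraries were scaled to total counts, where the median was 0.07 and that of all genes 0.16. DESeq2 called 1 gene higher and 7 lower. For neither setting is the share of all genes called given here. Without GRLKO replicate 3 the count was 0, without WT replicate 2 it was 1, and without WT replicate 1 or 3 it was 2. The TMM factors were 0.858 to 0.877 in WT and 0.923 to 0.988 in GRLKO, and the hepatocyte markers summed to 180979 to 187114 CPM in WT and 124555 to 142387 CPM in GRLKO while the Kupffer list summed to 49.9 to 80.4 and 112 to 141 CPM; their part in the result was not tested.

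At the other times under cal. res. edgeR called 0 genes of the family. The share of all genes called was 0.502% at ZT0, 0.690% at ZT4, 2.55% at ZT8, 4.54% at ZT16 and 1.47% at ZT20. At an unadjusted p under 0.05 the numbers were 9, 4, 7, 8 and 12 in that order, where 1606, 1755, 2092, 2285 and 2340 of all 12140, 12025, 12070, 11905 and 12076 genes tested passed. DESeq2 called 2, 0, 1, 6 and 3 of the family and 3.53%, 3.75%, 5.9%, 7.9% and 5.87% of all genes. At ZT0, 23 genes had all GRLKO livers above all WT livers, compared with 9.52% of all genes, and the median was 0.08. The summed level there was 11523, 11546 and 11645 CPM in WT and 12003, 12170 and 11904 CPM in GRLKO, without overlap. In 1 gene all GRLKO livers were below all WT livers at ZT0, as in 1314 of all 12140 genes tested. At ZT8 the separated genes lay mostly the other way, with 16 of 79 below WT and 1 above. Of all 12070 genes tested there, 1575 were below and 1400 above.

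On the control diet 1 gene of the family was called at ZT12 and 0 at the other times. At ZT12 it was Rpl22, of 78 genes, with 2.08% of all genes called in edgeR. DESeq2 called 2 there, and its share of all genes at this time is not given. Rpl22 was at 56.4, 63.7, 65.6 and 72.4 CPM in WT and 105, 95.0, 93.1 and 97.1 CPM in GRLKO (log2 fold change 0.60, SE 0.08, edgeR adjusted p = 0.00797), without overlap. Both levels also occurred within single groups at other times, however: ctrl. WT livers at ZT8 read 59.7, 91.4, 102 and 98.7 CPM, ctrl. GRLKO livers at ZT8 59.3, 102, 62.1 and 101 CPM, and cal. res. GRLKO livers at ZT4 101, 61.3 and 103 CPM. At the other times edgeR called 0 genes of the family, where it called 0.536% of all genes at ZT0, 0.195% at ZT4, 1.43% at ZT8, 1.98% at ZT16 and 0.420% at ZT20. Unadjusted, 6, 1, 2, 5 and 16 genes passed, where 1798, 1152, 1301, 1950 and 1346 of all 11749, 11817, 11582, 11723 and 11906 genes tested did. DESeq2 called 1, 0, 0, 1 and 2 of the family and 3.55%, 1.61%, 3.22%, 5.43% and 2.56% of all genes. At ZT20, 26 genes had all GRLKO livers above all WT livers (5.41% of all genes), with a median of 0.11.

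Whether the genotype difference itself changes with diet or time was tested by interaction. At ZT12 the genotype by diet term called 0 of 79 genes in edgeR (1.01% of all genes), with 4 at an unadjusted p under 0.05 (1742 of all 12225 genes) and 0 in DESeq2; the smallest adjusted p was that of Rps15a, 0.226, with an estimate of −0.37. The genotype by time term under cal. res. called 5 of 79 (5.34% of all genes), among them Rps15a (edgeR adjusted p = 0.0136), Rpl31 (0.0370) and Rpl23 (0.0380). This count ranged widely with the settings, with 19 in DESeq2 (9.9% of all genes), 3 with total-count scaling (5.31%) and 1 without the low-count filter (2.76%). On the control diet it called 0 (0.600% of all genes), with 5 unadjusted (1287 of all 12834 genes) and 2 in DESeq2 (1.93%). Without replicate 2 or 3 of every cal. res. group, edgeR called 0 in place of the 5.

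The step from ZT12 to ZT16 is the step into feeding on both diets, since food came at ZT12 and control mice had it from then until ZT0. In WT livers under cal. res. 25 genes were lower at ZT16 and 0 higher of 78, where 40.0% of all genes were called and 19.0% were called lower. The summed level was 13377, 12408 and 12161 CPM at ZT12 and 10903, 11120 and 10868 CPM at ZT16. The median log2 fold change was −0.22, 43 genes passed at an unadjusted p (5821 of all 11768), DESeq2 called 36 (39.0% of all genes), and 49 genes had all ZT16 livers below all ZT12 livers (27.0% of all genes). Without TMM, however, 0 were lower and 1 was higher, with a median of −0.06 against 0.18 for all genes: the share of all counts was 1.04 to 1.17% at ZT12 and 1.05 to 1.09% at ZT16, and the TMM factors were 0.858 to 0.877 and 0.967 to 0.980. The fall is thus a fall relative to the bulk of other genes and not in the share of all counts. How many of all genes were called without TMM is not given, so the counts of 0 and 1 have no background.

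Large falls in WT livers under cal. res. were found in both subunits. Rps4x, the X-linked small subunit protein, went from 364, 367 and 342 CPM to 248, 293 and 271 CPM (−0.40, edgeR adjusted p = 0.0126). Rps9 went from 278, 245 and 236 to 202, 197 and 179 CPM (−0.39, adjusted p = 0.0154 in edgeR), and Rpl34 from 125, 117 and 122 to 90.4, 98.9 and 89.5 CPM (−0.38, adjusted p = 0.00814). Rps27l, which was not called by diet, fell here from 121, 114 and 118 to 101, 98.2 and 102 CPM (−0.23, adjusted p = 0.0377 in edgeR). Rplp0 (−0.11, adjusted p = 0.58) and Rps6 (−0.17, adjusted p = 0.138) did not pass in edgeR.

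In WT under cal. res. the count was lower without any one library of this step: it was 14, 12 and 15 without ZT12 replicates 1, 2 and 3, and 8, 14 and 12 without ZT16 replicates 1, 2 and 3. In the same step 14 of 30 translation factors and other TOP mRNAs were lower and 2 higher, with Eef2 at −0.82 (edgeR adjusted p = 0.00072) and Eef1a1 at −0.54 (0.00184), while 14 of 35 ribosome biogenesis genes were higher and 3 lower. The shares of all genes called and called lower in this step are given above, and the share called higher is not given. The hepatocyte markers summed to 180979 to 187114 CPM at ZT12 and 143720 to 150685 CPM at ZT16, and the Kupffer list to 49.9 to 80.4 and 111 to 155 CPM; their part was not tested.

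In GRLKO livers under cal. res. the same step gave 6 genes lower and 1 higher of 77, where 37.8% of all genes were called and 17.8% were called lower, with a median of −0.12; 18 passed unadjusted (5667 of all 11943 genes) and DESeq2 called 16 (37.0%). Fau went from 73.6, 144 and 101 CPM to 57.6, 71.1 and 50.4 CPM (−0.82, edgeR adjusted p = 0.0296), Rpl22 from 112, 113 and 108 to 71.8, 65.1 and 63.3 CPM (−0.73, adjusted p = 0.000671) and Rpl28 from 72.5, 103 and 92.7 to 56.5, 71.8 and 55.1 CPM (−0.54, adjusted p = 0.0298). Rps2 was the one that rose, from 421, 449 and 467 to 551, 632 and 548 CPM (0.38, adjusted p = 0.0164 in edgeR), but with the counts of its copies added the change was −0.19 by name and −0.22 by sequence. Rps13 fell by 0.75 on the log2 scale (adjusted p = 0.046 in edgeR), and by 0.24 with its copies added by name (adjusted p = 0.191). The count was 2 without GRLKO ZT12 replicate 2 or 3 or ZT16 replicate 1 or 3, 11 without ZT12 replicate 1 and 12 without ZT16 replicate 2.

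On the control diet the step gave 0 calls in edgeR in WT (of 77, with 13.4% of all genes called) and 0 in GRLKO (of 78, with 9.06% called). Unadjusted, 3 and 1 genes passed (3437 of all 11452 and 2820 of all 11753), and DESeq2 called 1 in each (16.8% and 11.9% of all genes). The difference between the diets was tested in WT, across the 2 tables: 4 of 79 genes had a lower step under cal. res. (14.8% of all genes called; 28 unadjusted, with 3732 of all 12243 genes), among them Rps4x (−0.44, edgeR adjusted p = 0.0196) and Rpl34 (−0.38, 0.0307). The difference between genotypes under cal. res. gave 0 of 78 (3.15% of all genes), with 24 unadjusted (2273 of all 12312 genes).

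Rhythms over the whole day were tested with JTK_CYCLE at a period of 24 h. In WT livers 23 of 82 genes were rhythmic under cal. res. (27.5% of all genes) and 33 of 82 on the control diet (30.9%), at an adjusted p under 0.05 and an amplitude above 0.1. The median peak was at 10.4 h under cal. res. (quartiles 8.6 and 11.3 h) and 13.1 h on the control diet (12.8 and 13.4 h), that is, around the onset of the dark phase on both. Of the rhythmic genes, 19 of 23 and 27 of 33 had their highest group mean at ZT12, and 49 of all genes of the family did in each diet. In GRLKO livers 8 of 82 genes were rhythmic under cal. res. (25.2% of all genes) and 12 of 81 on the control diet (26.7%), with median peaks at 17.2 and 14.9 h; 28 and 13 genes were highest at ZT12. The difference in number between genotypes was not tested. How many of all genes were highest at ZT12 is not given, so the counts of genes highest at ZT12 have no background.

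**Figure D4:**
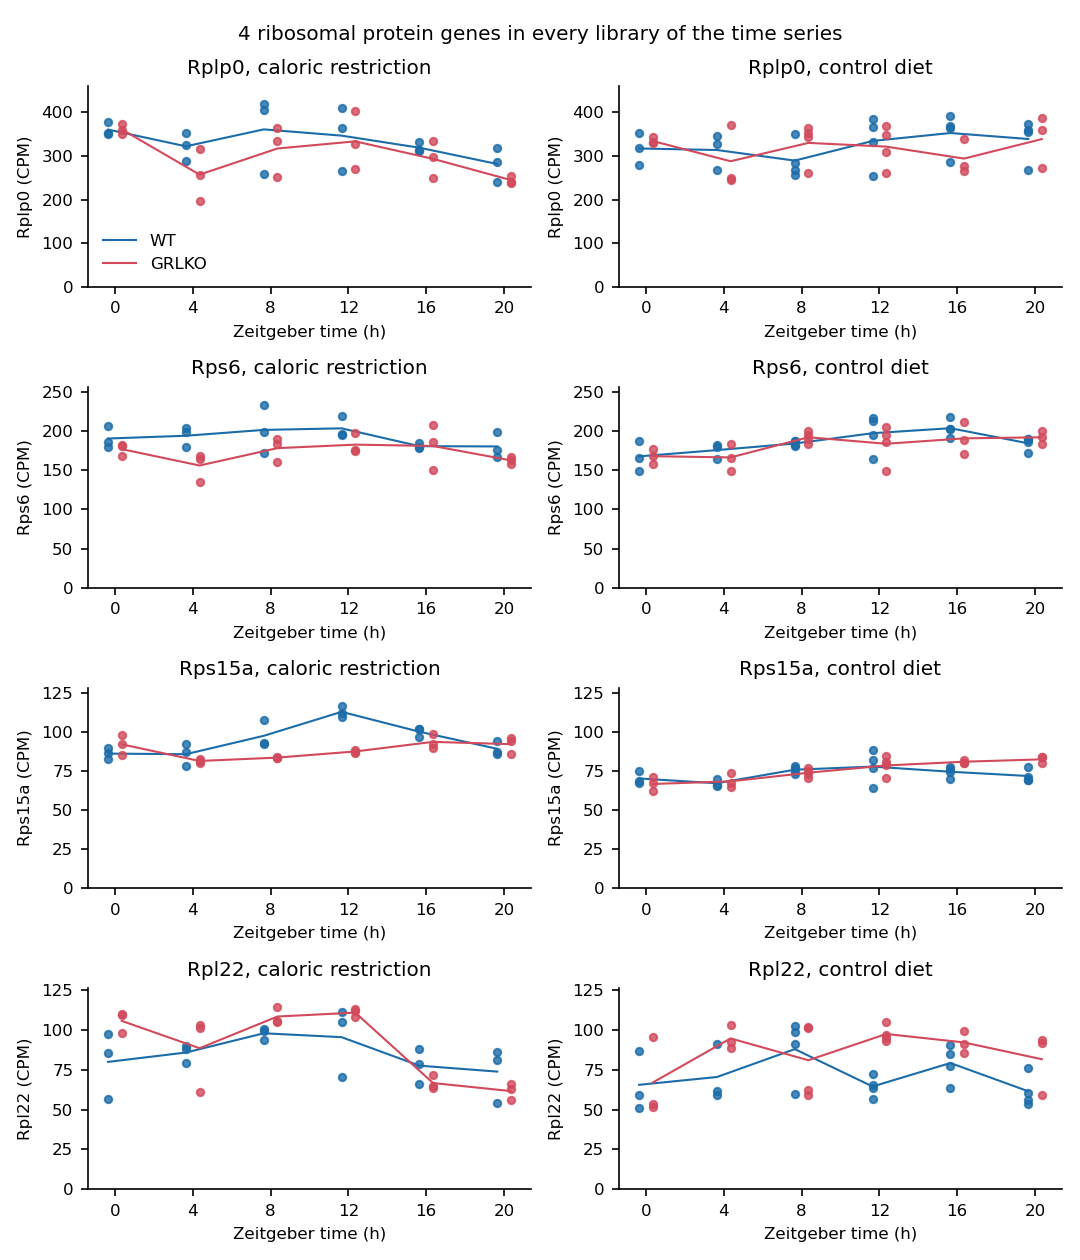
CPM of Rplp0, Rps6, Rps15a and Rpl22 in every library of the time series by zeitgeber time, with 1 point per library, lines at group means, WT in blue and GRLKO in red. Rps15a in WT under caloric restriction is highest at ZT12, at 110 to 117 CPM, Rpl22 falls into a higher and a lower set of livers within several groups, and Rplp0 spreads widely within groups.

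The median range of a gene's group means over the day was 0.34 on the log2 scale in WT under cal. res. and 0.28 on the control diet, and 0.35 and 0.22 in GRLKO. The genes with the smallest adjusted p in WT, chosen after their values were seen, show the size of these rhythms. Rps15a under cal. res. had group means of 86.4, 86.0, 97.8, 113, 100 and 89.5 CPM from ZT0 to ZT20 (JTK_CYCLE adjusted p = 0.00108), and its GRLKO amplitude of 0.092 was below the threshold. Rps18 on the control diet had means of 194, 214, 237, 267, 243 and 229 CPM (adjusted p = 5.9e-05). Not every gene peaked near ZT12: Rplp1 under cal. res. was at 217 CPM at ZT0 and 146 CPM at ZT12, with a fitted peak at 1.6 h (adjusted p = 0.0104). Rplp0 was rhythmic in WT on neither diet (adjusted p = 0.571 under cal. res. and 0.138 on the control diet), and livers of one group spread widely for it, as at ZT8 under cal. res. with 258, 418 and 406 CPM. Rps6 (adjusted p = 0.0111) and Fau (0.0401) were rhythmic in WT on the control diet, with means from 168 and 94.7 CPM at ZT0 to 204 and 140 CPM at ZT16. Rps27l (0.000606) went from 95.0 CPM at ZT0 to 122 CPM at ZT12 there.

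These counts changed with the libraries used. With 3 livers per time under cal. res., leaving out replicate 1 at every time gave 17 rhythmic genes in WT and leaving out replicate 2 or 3 gave 1. In GRLKO under cal. res. the numbers were 2, 0 and 1, in WT on the control diet they were 26, 27, 19 and 20 without replicates 1 to 4, and in GRLKO on the control diet 4, 2, 13 and 13. Shares of all genes rhythmic in these fits are not given, so whether the family changed more than other genes was not tested. An edgeR F test over the time points, which asks for any difference and not for a wave, called 41 genes in WT (64.3% of all genes) and 36 in GRLKO (60.5%) under cal. res., of 79 tested in each.

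The largest ranges over the day did not come from genes with a smooth wave. Under cal. res. in WT they were those of Rps27 (3.59 on the log2 scale), Rps12 (3.33), Rps13 (1.31) and Rpl3 (1.22), and on the control diet they included those of Rps12 (1.90), Rps27 (1.55) and Rpl3 (0.82). Rps12 was at a few CPM or less in every liver of the time series. Rps13 and Rpl3 were abundant. Rps13 was at 79.5, 12.1 and 24.5 CPM in WT under cal. res. at ZT12, and with its copies the 3 livers read 93.4 to 119 CPM.

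Rpl3 with its copies was far steadier than Rpl3 alone. Under cal. res. in WT at ZT12 Rpl3 was at 78.5, 192 and 174 CPM, its copies at 292, 145 and 140 CPM and the sum at 371, 337 and 314 CPM. At ZT16 the gene was at 154, 277 and 301 CPM, the copies at 130, 0.0 and 0.3 CPM and the sum at 284, 277 and 301 CPM. On the control diet in WT at ZT12 the gene was at 136, 142, 127 and 162 CPM and the sum at 240, 252, 224 and 275 CPM. A drop in the gene was thus matched by counts on its copies, mainly Rpl3-ps1 and Rpl3-ps2, in the same liver.

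**Figure D5:**
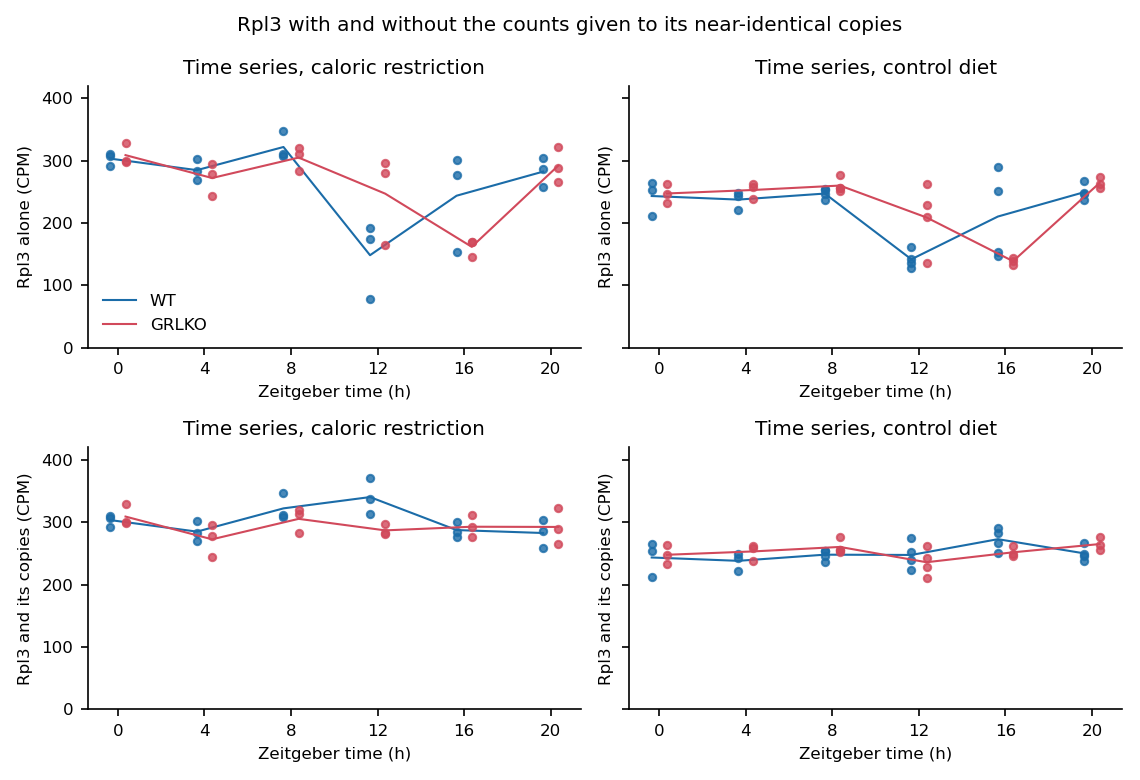
CPM of Rpl3 alone (upper panels) and of Rpl3 with its near-identical copies (lower panels) by zeitgeber time in the time series, with 1 point per library, lines at group means, WT in blue and GRLKO in red. Rpl3 alone drops at ZT12 and ZT16 in some livers of every group of the time series, to 78.5 CPM at the lowest, and the sum with the copies does not.

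The copies carried at least 50 CPM in 18 of the 27 time series libraries at ZT12 and ZT16 and at most 2 CPM in the other 9, while the highest value in the 63 remaining libraries of all experiments was 1.7 CPM. At ZT12 the high value was found in 4 of 4 ctrl. WT, 1 of 4 ctrl. GRLKO, 3 of 3 cal. res. WT and 1 of 3 cal. res. GRLKO livers. At ZT16 it was found in 2 of 4, 3 of 3, 1 of 3 and 3 of 3 livers in the same order. In the diet comparison, also taken at ZT12, the copies were at 0.0 to 0.5 CPM. Summed with its copies, Rpl3 had group means from 283 to 340 CPM over the day in WT under cal. res. and from 238 to 273 CPM on the control diet.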

How the data were processed

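Bulk liver RNA-seq libraries, 90 in all, were analysed from the count tables deposited by the authors. Their values are estimated counts per gene, made by the authors with Salmon and tximport; the submitters' processing notes also name FastQC, MultiQC, DESeq2 and the mm10 build, and the transcript annotation is not given in the sources used here. A table of variance-stabilised values with 6 columns was not used. Of 27654 gene IDs, 27244 matched a symbol, and the unmatched IDs held 0.107% of the counts. Total counts per library set the precision, and their ranges are in the report.

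Estimated counts, rounded to integers, were tested with edgeR 4.0.16 (quasi-likelihood F test, TMM scaling, filterByExpr with a minimum count of 10) in R 4.3.3, with Benjamini-Hochberg adjustment over all genes tested and a threshold of 0.05. A fit held only the groups it compared. Rhythms were tested with an implementation of JTK_CYCLE (exact null distribution, period 24 h, 6 phase offsets, amplitude above 0.1 on variance-stabilised values from DESeq2 1.42.0). The edgeR fit of a group against another group and the JTK_CYCLE implementation were tested on simulated data. Tests of the other fits on simulated data are not given here. Copies were found by name and with blastn 2.17.0+ (90% identity, 50% coverage). The study itself tested with DESeq2, which was run here as an alternative, together with total-count scaling, no low-count filter, a replicate block, limma 3.58.1 for a cosine, copies added to their gene, and each replicate left out.

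The genes and gene lists were chosen with earlier results of these data known. Genes are named by a rule: the 4 largest rises and 4 largest falls among called genes at 5 CPM or more in either group, the 4 largest ranges over the day in WT on each diet, the stalk genes, Rpsa, Fau, Rps6, Rpl3, Rps27 and 5 of the 6 paralogs, plus Eef1a1, Eef2, Tpt1, Npm1 and Myc from the other lists. Replicate numbers did not pair the samples, since in no comparison were the deviations of every same-numbered pair correlated at over 0.1 (range over all pairs −0.231 to 0.269). Some genes that the rule names are not reported here. None of 102 pairs of replicates held identical values.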

Additional observations from a re-analysis of the deposited data

Results flagged for a closer look

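In groups of 4 livers, a value was looked at again when its gap to the nearest of the others took up most of the group's range (Dixon's test at the 95% level). This was run on 13 quantities in 6 groups, 78 tests in all, and chance alone would pick out about 1 in 20. It picked out 5 values, of which 3 were of Rpsa on the control diet. In WT at ZT8 replicate 1 was at 8.5 CPM while the others were at 17.4 to 18.2 CPM, in WT at ZT16 replicate 2 was at 7.8 CPM while the others were at 18.2 to 18.9 CPM, and in WT at ZT12 replicate 4 was at 25.5 CPM while the others were at 11.04 to 13.1 CPM. Rpl3 in GRLKO at ZT8 was at 276.6 CPM in replicate 4 and at 252.2 to 255.9 CPM in the others. Rpl30 in WT at ZT20 was at 64.5 CPM in replicate 1 and at 99.8 to 106.2 CPM in the others.

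Differences between effects were tested directly in edgeR, and 3 of these tests called genes of the family. The step from ZT12 to ZT16 differed by diet in WT for 4 of 79 genes of the family, where 14.8% of all genes were called. The genotype difference varied over the day under caloric restriction for 5 of 79 genes, a share near the 5.34% of all genes called, and the count was 0 without replicate 2 or 3 of every group. The effect of caloric restriction differed from that of corticosterone for 61 of 78 genes, where 22.5% of all genes were called. The first and the last of these compare libraries of separate tables, from which diet or treatment cannot be told apart.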

How the results depend on the processing

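The diet result of 69 genes, all higher, was within 1.5 times that count under every planned setting, and between 67 and 70 with 1 library left out. With the time series libraries, an alternative chosen after seeing the data, it was 35, counting higher and lower genes together. There Rpl36 (−1.25), Rplp1 (−1.03), Fau (−0.94), Rplp2 (−0.87) and Rps27l (−0.066) turned to lower values. DESeq2 called 1 gene for CORT, for genotype under caloric restriction 2 at ZT0, 1 at ZT8, 8 at ZT12, 6 at ZT16 and 3 at ZT20, for genotype on the control diet 1 at ZT0, 2 at ZT12, 1 at ZT16 and 2 at ZT20, for the ZT16 step 16 in GRLKO under caloric restriction and 1 in each genotype on the control diet, and for genotype by time 19 under caloric restriction and 2 on the control diet. Total-count scaling gave 0 genes for genotype under caloric restriction at ZT12 and 1 at ZT20, 1 for the WT step and 3 for genotype by time. Genotype by time under caloric restriction gave 1 with a limma cosine and 1 without the low-count filter. Copies added by sequence, also chosen after seeing the data, gave 38 for the WT step, 4 for the GRLKO step (4 by name) and 8 for genotype by time under caloric restriction, and turned Rps2 to −0.22 (−0.19 by name). With the replicate block, though the numbers did not pair the samples, the count was 1 and 0 for genotype at ZT12 under caloric restriction and on the control diet, 9 and 11 for the WT and GRLKO steps under caloric restriction and 0 for genotype by time; the edgeR F test for rhythm under caloric restriction gave 41 in WT and 36 in GRLKO, and 38 and 33 with the block. Without the amplitude threshold 25 genes were rhythmic in GRLKO on the control diet. With 1 library or replicate left out, the counts were 0 to 1 for CORT, 0 to 4 for genotype under caloric restriction at ZT12, 0 to 1 at ZT16 and 0 to 1 at ZT20, 1 to 2 on the control diet at ZT12, 8 to 15 and 2 to 12 for the WT and GRLKO steps under caloric restriction, 0 to 1 in each genotype on the control diet, 0 to 6 for genotype by time under caloric restriction, and 1 to 17, 0 to 2, 19 to 27 and 2 to 13 for rhythms in WT and GRLKO under caloric restriction and in WT and GRLKO on the control diet. Counts in this section are of the family alone, without the share of all genes beside them. The cause of these changes was not tested. Besides the settings with a library left out, 36 counts changed by more than 1.5 times and 134 did not. With 3 or 4 livers per group and 10057544 counts in the shallowest library, smaller differences may not be detectable.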
